A study of Mus musculus with 16 samples.

Results

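miR-99a, miR-99b, miR-100, miR-125a-5p, miR-125b-5p and let-7e are 6 mature miRs that come from 3 small groups of genes in the mouse genome. They were chosen by name, as every non-control array probe whose target was mmu-miR-99a, mmu-miR-99b, mmu-miR-100, mmu-miR-125a-5p, mmu-miR-125b-5p or mmu-let-7e. This gave 6 of the 577 miRs on the array and 12 of its 1712 miR probes. The 6 miRs were among the 237 that were well above background on at least 3 arrays. miR-99b and miR-125a-5p passed this filter through HSC arrays alone, so that a higher signal in HSC subsets was in part fixed by the filter for these 2 miRs. The same holds for let-7e, which was well above background on 7 HSC arrays and 2 myeloid arrays, too few to pass without the HSC arrays.

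A miR is a short RNA that guides the silencing complex to mRNAs carrying a match to its seed, the bases near its 5′ end. Vertebrate genomes hold paralogous clusters in which a gene of the miR-99 and miR-100 family lies next to a let-7 gene and a miR-125 gene. miR-125 genes are known regulators of haematopoietic stem cell number and can drive leukaemia when overexpressed, and let-7 miRs are known for repressing growth and stem cell genes. Cluster mates can be cut from a shared primary transcript, but their mature levels also depend on processing and decay.

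The study profiled 6 sorted bone marrow populations from female C57Bl/6 mice aged 6 to 8 weeks, with RNA from 10 to 20 pooled mice per sample, on 16 Agilent one-colour arrays. All populations were Lin- ckit+. The HSC subsets, which were also Sca1+, were LT-HSC (CD34- FLT3-, 1 array), ST-HSC (CD34+ FLT3-, 3 arrays) and MPP (CD34+ FLT3+, 3 arrays). The myeloid progenitors, which were Sca1-, were CMP (intermediate for CD34 and the Fc gamma receptor, 3 arrays), GMP (positive for both, 3 arrays) and MEP (negative for both, 3 arrays). LT-HSC and ST-HSC stand for long- and short-term stem cells, MPP for multipotent progenitors, and CMP, GMP and MEP for common myeloid, granulocyte-monocyte and megakaryocyte-erythroid progenitors. No treatment or mutation is named for any sample. HSC subsets and myeloid progenitors came from separate sorts, so that sort and side cannot be told apart.

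The mature sequences show how closely the members resemble each other, which matters for short probes. They are RefSeq entries on GRCm38.p6, matched for 6 of 6 members, printed 5′ to 3′ with the seed (bases 2 to 8) in capitals. miR-99a, miR-99b and miR-100 share 1 seed, miR-125a-5p and miR-125b-5p share another, and let-7e has that of let-7a.
miR-99a: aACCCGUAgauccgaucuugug
miR-99b: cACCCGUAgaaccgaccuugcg
miR-100: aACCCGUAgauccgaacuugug
miR-125a-5p: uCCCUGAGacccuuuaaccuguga
miR-125b-5p: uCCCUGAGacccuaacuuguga
let-7e: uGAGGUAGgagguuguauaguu
let-7a: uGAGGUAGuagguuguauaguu
miR-10a: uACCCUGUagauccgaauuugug
Counting from 1 at the 5′ end, miR-100 differs from miR-99a by U16A alone, and miR-99b differs from it by A1C, U11A, U16C and U21C. miR-125a-5p and miR-125b-5p share their first 13 bases. let-7a, encoded next to Mir100, differs from let-7e by G9U alone. miR-10a has another seed but shares a run of 10 bases, guagauccga, with miR-99a and miR-100.

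On chromosome 17 (GRCm38.p6), Mir99b (17830188 to 17830257), Mirlet7e (17830352 to 17830444) and Mir125a (17830812 to 17830879) lie within 692 bases, inside the span of the gene Spaca6. On chromosome 16, Mir99a (77598936 to 77599000) is followed by Mirlet7c-1 and, 47408 bases from the start of Mir99a to its end, by Mir125b-2 (77646273 to 77646343), and no gene of the RefSeq table used spans any of them. The host gene Mir99ahg, as that table lists it, does not span Mir99a. On chromosome 9, Mir100 (41531425 to 41531504), Mirlet7a-2 and Mir125b-1 (41581926 to 41582002) span 50578 bases inside the long non-coding gene Mir100hg. Mir125b-1 and Mir125b-2 give the same mature miR-125b-5p, so an array signal cannot be assigned to either copy. Each member had 2 probes of 10 spots. Their mm9 spans in the array files were 15 to 19 bases long, such as chr16:77599188-77599206 for the brighter miR-99a probe. The 2 probes of a member shared 1 end and differed by 1 base in length, and the longer probe was the brighter of each pair.

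The arrays lay on 3 slides. On slide 1 were the arrays of CMP, GMP and MEP numbered 1 and 2. Their arrays numbered 3 shared slide 2 with LT-HSC and ST-HSC replicate 1, and MPP shared slide 3 with ST-HSC replicates 2 and 3. Between 142 and 226 miRs were well above background per array. Slide 1 was the brightest, with 165179 to 336394 units of summed processed signal per array. Arrays of slide 2 gave 35255 to 113718 units, and those of slide 3 gave 126283 to 164288. The pan-blood miRs miR-142-3p and miR-142-5p were detected on 16 of 16 arrays. miR-223, a granulocyte-monocyte miR, took 8.60 to 9.41% of the summed signal in GMP and 0.14 to 0.65% in MEP. The erythroid miRs miR-144, miR-451 and miR-486 together took 2.04 to 4.21% in MEP, 0.98% on the LT-HSC array and at most 0.22% elsewhere. None of the 5 stromal miRs on the array (miR-143, miR-145, miR-199a-5p, miR-199b and miR-214) was well above background on any array. The liver miR miR-122 and 4 of 5 epithelial miRs were likewise not well above background on any array. The lymphocyte miR miR-150 took at most 0.0943% of the summed signal. Of 4 muscle and 2 neural miRs, none was well above background on more than 2 arrays. The muscle miRs together reached 0.227% of the summed signal on an MEP array, beside at most 0.0174% in the other populations. The neural miRs reached 0.0289% on a CMP array, beside at most 0.00618% in the other populations.

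All signals below are quantile-normalized probe signals in log2 units, where 1 unit is a 2-fold step, with a floor at 1.62 log2 units set from the negative control spots. A member is given by the brighter of its passing probes. A probe is called well above background on an array where at least 0.5 of its spots carried that flag. Where no array of a side met this, the fold was taken against the detection limit. The limit of an array is the lowest signal of any probe well above background, or the miR's own value where higher. All arrays of the higher side enter as measured. The fold is a bound (at least) only where all of them were well above background, and otherwise an estimate (about). Levels of different miRs are not compared, since probes differ in yield, and in sorted populations fewer cells with a miR cannot be told apart from less of it per cell. All 6 members differed across the populations (limma's moderated F, adjusted p between 2.30e-08 for miR-99a and 3.84e-05 for miR-100), where 82.7% of the 237 tested miRs did.

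miR-125b-5p was the only member well above background on 16 of 16 arrays. It read 9.55 in LT-HSC, 8.83, 9.06 and 9.16 in ST-HSC, 9.66, 9.44 and 9.52 in MPP, 8.17, 7.80 and 7.65 in CMP, 6.96, 7.01 and 6.13 in GMP, and 4.45, 5.0 and 4.19 in MEP (replicates in order). The HSC arrays were all above the CMP arrays, the CMP arrays above the GMP arrays, and the GMP arrays above the MEP arrays. miR-99a, encoded on chromosome 16 with a copy of miR-125b, read 8.47 in LT-HSC, 8.65 to 8.90 in ST-HSC, 9.06 to 9.28 in MPP, 7.50 to 7.58 in CMP, 5.86 to 6.72 in GMP and 3.45 to 4.12 in MEP, with the same order of HSC, CMP, GMP and MEP arrays and no overlap between them. It was well above background on 15 arrays, all but MEP replicate 1. For both miRs, the neighbours in the order of population means from CMP down to MEP differed beyond their spread (adjusted p at most 0.0209 in limma), whereas the neighbours among LT-HSC, ST-HSC and MPP did not pass the test.

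miR-100, which differs from miR-99a by 1 base, did not follow the same order. It read 4.65 in LT-HSC, 5.86, 4.43 and 4.52 in ST-HSC, 5.17, 4.99 and 5.25 in MPP, 5.62, 5.56 and 5.02 in CMP, 4.72, 5.13 and 3.36 in GMP, and the floor on all 3 MEP arrays. The HSC, CMP and GMP ranges overlapped, and only MEP stood below them. The other miR-100 probe was at the floor on all 16 arrays, so that miR-100 rests on 1 probe.

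The 3 miRs of the chromosome 17 cluster were seen mainly in HSC subsets. let-7e read 5.73 in LT-HSC, 5.63, 6.72 and 7.31 in ST-HSC, 7.51, 7.26 and 7.61 in MPP, 4.31, 4.58 and 4.38 in CMP, 3.54, 3.57 and 2.52 in GMP, and 1.62, 1.96 and 1.62 in MEP. The flag for signal well above background was met by 7 of 7 HSC arrays and by 2 of 9 myeloid arrays, CMP replicate 1 and GMP replicate 2. The let-7e count depends on the slide. In unnormalized signal, CMP replicate 2 gave 32.9 units on slide 1 and did not meet the flag. LT-HSC and ST-HSC replicate 1 gave 16.9 and 27.2 units on slide 2 and met it, while CMP replicate 3, also on slide 2, gave 8.87 units and did not. miR-125a-5p read 5.41 in LT-HSC, 4.89 to 5.33 in ST-HSC, 5.23 to 5.69 in MPP, 2.51 to 3.64 in CMP and the floor on the 6 GMP and MEP arrays. All 7 HSC arrays and 0 of 9 myeloid arrays measured it well above background. This count depends on the slide. In unnormalized signal, CMP replicates 1 and 2 gave 18.5 and 18.1 units on slide 1 and did not meet the flag. LT-HSC and ST-HSC replicate 1 gave 13.9 and 15.4 units on slide 2 and met it. CMP replicate 3, also on slide 2, gave 2.47 units and did not. miR-99b read 4.02 in LT-HSC, 3.88 to 4.27 in ST-HSC, 4.34 to 4.51 in MPP, 2.09 to 2.32 in CMP and the floor in GMP and MEP, and was well above background on 6 HSC arrays, not on LT-HSC. For these 3 miRs no HSC array overlapped any myeloid array. let-7e was the one whose neighbours in the order of means missed the threshold also from LT-HSC to CMP (adjusted p = 0.0642 in limma) and from CMP to GMP.

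**Figure D1:**
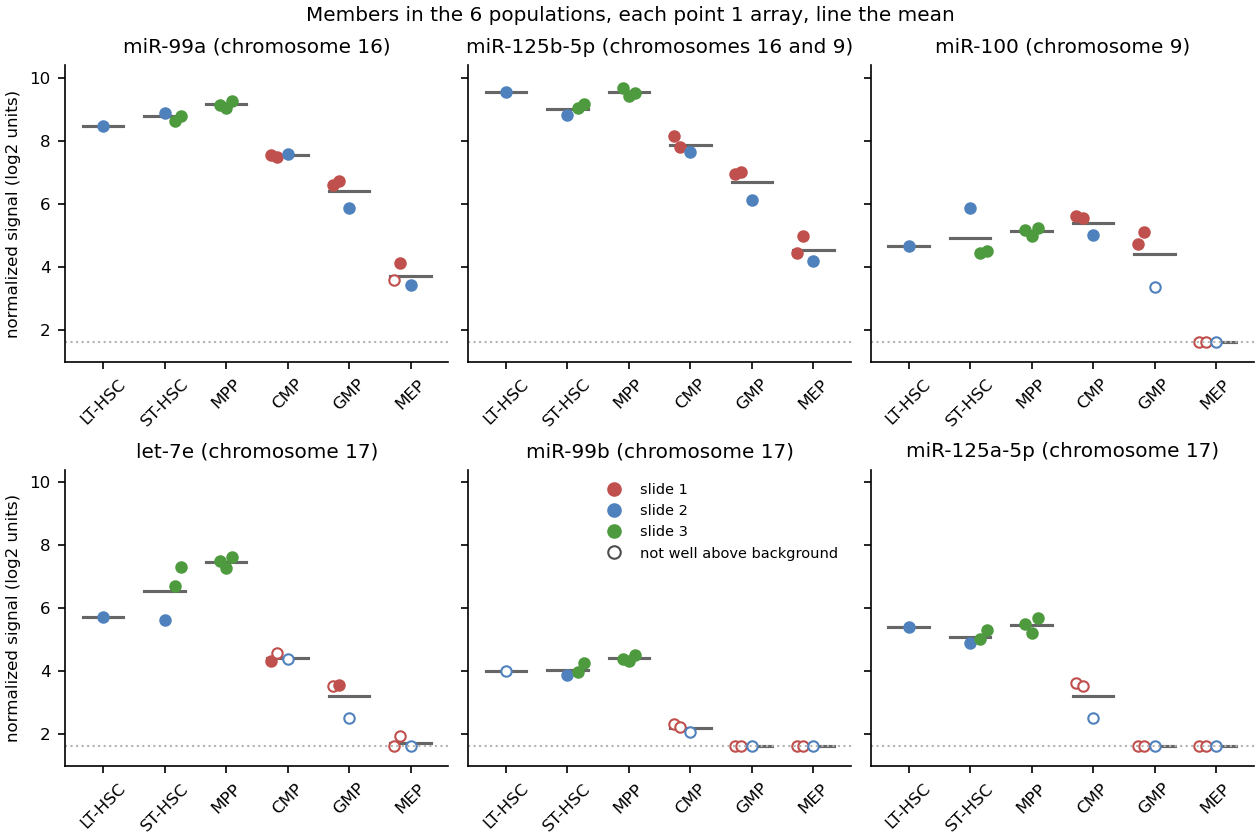
Normalized signal (log2 units, y axis) of the 6 members in the 6 populations (x axis), each point 1 array coloured by slide, open where the probe was not well above background, with the mean as a line and the floor of 1.62 dotted. miR-99a and miR-125b-5p step down from HSC subsets through CMP and GMP to MEP, miR-100 overlaps between populations except in MEP, and let-7e, miR-99b and miR-125a-5p drop toward the floor in myeloid progenitors.

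The first comparison asked which miRs mark the HSC subsets against the myeloid progenitors, as the mean of 3 population means on each side. All 6 members were higher in HSC subsets, where 25.3% of the tested miRs were. For let-7e, miR-125a-5p and miR-99b this direction was in part fixed by the detection filter. The difference was 2.92 ± 0.16 log2 units (SE) for miR-99a (7.56-fold, adjusted p = 1.2e-08 in limma) and 3.00 ± 0.18 for miR-125b-5p (7.99-fold, adjusted p = 2.41e-08). For let-7e, which 7 of 7 HSC arrays but 2 of 9 myeloid arrays measured, the fit gave 3.46 ± 0.25 (adjusted p = 1.4e-07), a size that depends on the floor. miR-125a-5p and miR-99b had no myeloid array to measure, so they were set against the detection limit, at least 2.73-fold and about 1.28-fold higher. The miR-99b fold is not a bound, since LT-HSC was not well above background. The fits of these 2 miRs, each with 6 of 9 myeloid values at the floor, gave 3.16 and 2.35 (adjusted p = 1.2e-08 and 3.73e-09 in limma). These p-values belong to the floored fits, not to the folds, and both miRs passed the filter through HSC arrays alone. miR-100 differed least, by 1.10 ± 0.29 (2.15-fold, adjusted p = 0.00678), and this call was lost with unnormalized signals (adjusted p = 0.291) and with normexp background correction (adjusted p = 0.151).

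The 7 HSC arrays read above the 9 myeloid arrays without overlap for 5 of the 6 members, against 2.95% of the 237 tested miRs, or 7 miRs. Of these 5 members, let-7e, miR-125a-5p and miR-99b passed the filter only with their HSC arrays. The other 2 of these 7 were miR-10a and miR-224, named here after their values were seen. miR-100 was the member that overlapped. The median difference of the 6 members was 2.96, or 2.18 with miR-125a-5p and miR-99b set against the detection limit, beside 0.06 over all tested miRs. With slide as a block, the difference was 3.27 for miR-99a, 3.23 for miR-125b-5p and 2.97 for let-7e, and that of miR-100 became 2.35 ± 0.31 (adjusted p = 0.000117 in limma). All 6 members were then called, where 27.0% of the tested miRs were. On slide 2 alone, which holds both sides, the differences were 1.93 for miR-100, 3.06 for miR-99a and 3.21 for miR-125b-5p, although with 2 HSC arrays there 0 of the tested miRs passed in limma (11 at an unadjusted p under 0.05, 4 of them members). The lymphocyte miR miR-150 was also higher in HSC subsets, by 2.14, and its part in the members' values was not tested.

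**Figure D2:**
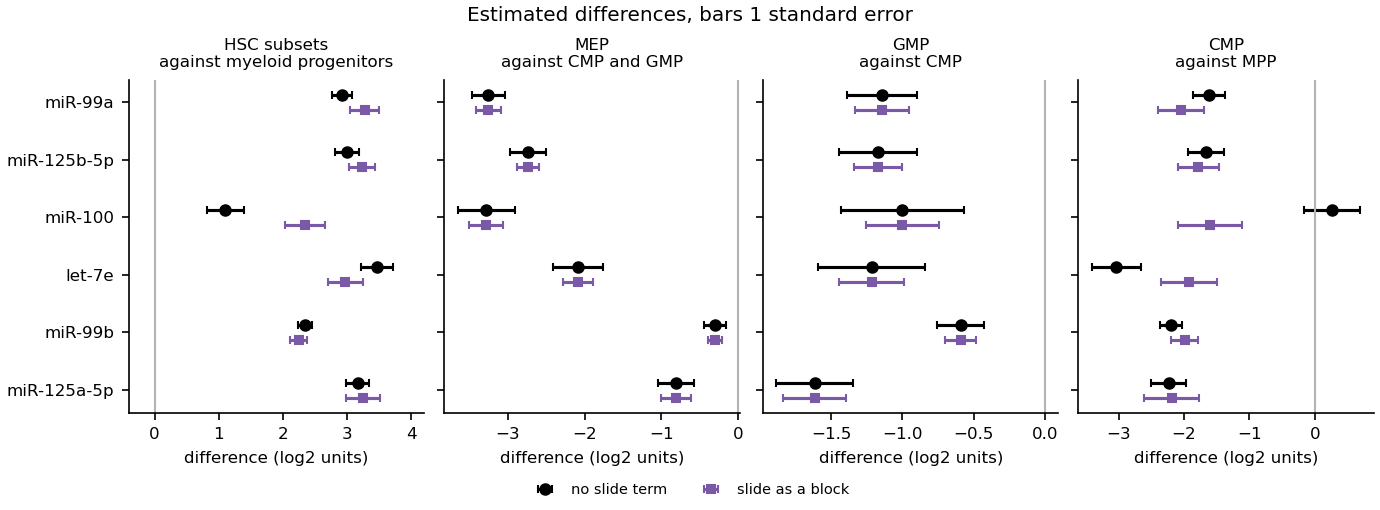
Estimated differences in log2 units (x axis) for the 6 members in 4 comparisons, with bars of 1 standard error, without a slide term (circles) and with slide as a block (squares). Estimates of miR-99b and miR-125a-5p are set against probes not well above background in myeloid progenitors. Both fits give the same estimates for MEP against CMP and GMP and for GMP against CMP. miR-100 changes sign in CMP against MPP, from 0.26 to -1.60.

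Within the myeloid progenitors, 5 of 6 members were lower in MEP than in CMP and GMP, where 45.1% of the tested miRs were. Of these, miR-99a fell by 3.26 ± 0.21 log2 units (adjusted p = 4.32e-08 in limma) and miR-125b-5p by 2.74 ± 0.24 (adjusted p = 5.2e-07). Neither miR-100 nor let-7e was well above background in MEP, and against the detection limit they were about 2.37-fold and about 1.12-fold lower. These folds are not bounds, since 5 of 6 CMP and GMP arrays measured miR-100 and 2 of 6 measured let-7e. The fits of these 2 miRs, with MEP values at or near the floor, gave -3.28 and -2.09 (adjusted p = 6.03e-06 and 8.36e-05 in limma). These p-values do not belong to the folds. The let-7e call, which 2 of 6 CMP and GMP arrays measured, was lost with normexp (adjusted p = 0.192) and with the deposited values (adjusted p = 0.202). The call on miR-125a-5p (difference -0.81, adjusted p = 0.00702) compares values that were not well above background on either side, and miR-99b was in the same position without passing the test (-0.30, adjusted p = 0.0833). With slide as a block, miR-99b passed too (adjusted p = 0.0129), for 6 of 6, where 59.1% of the tested miRs were lower. The median difference of the members was -2.41, beside -0.49 over all tested miRs. It was -1.99 over the 4 measured on at least 1 array, with miR-100 and let-7e set against the detection limit. The 2 slides that hold all 3 populations gave close values for miR-99a (-3.24 and -3.28) and miR-125b-5p (-2.76 and -2.70). The erythroid miRs moved the other way in this comparison, miR-144 by at least 39.8-fold, miR-451 by 5.98 log2 units and miR-486, which 1 of 6 CMP and GMP arrays measured, by 4.88, and their part in the members' values was not tested.

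GMP lay below CMP for 4 of 6 members, where 4.64% of the tested miRs were lower. miR-99a fell by 1.14 ± 0.24 (adjusted p = 0.0112 in limma), with CMP at 7.50 to 7.58 and GMP at 5.86 to 6.72. When 1 array was left out, its adjusted p rose to at most 0.0498. The call was lost with the dimmer probe (adjusted p = 0.0679) and on slide 1 alone (0.0514), alternatives chosen after the data were seen. miR-125b-5p fell by 1.17 ± 0.27 (adjusted p = 0.0209), a call lost without CMP replicate 1 (adjusted p = 0.0923), CMP replicate 2 (0.0528) or GMP replicate 3 (0.0786). The calls on miR-125a-5p (-1.62) and miR-99b (-0.59) again rest on probes not well above background in either population, and that on miR-99b was lost when any 1 of 11 arrays was left out, CMP replicates 1 and 2 and the 3 GMP arrays among them (adjusted p up to 0.246). let-7e (-1.22 ± 0.38, adjusted p = 0.0572) and miR-100 (-1.0 ± 0.43, adjusted p = 0.198) missed the threshold. With slide as a block, all 6 passed (adjusted p at most 0.013), where 15.6% of the tested miRs were lower. With unnormalized signals 0 of the 6 passed in limma.

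From MPP to CMP, the step at which multipotent cells become committed to the myeloid side, 5 of 6 members were lower in CMP, where 17.3% of the tested miRs were. Of these, let-7e, miR-125a-5p and miR-99b passed the detection filter only with HSC arrays, MPP among them. Their direction was therefore in part fixed by the filter, with or without a slide term. miR-99a fell by 1.61 ± 0.24 (adjusted p = 0.000354 in limma) and miR-125b-5p by 1.67 ± 0.27 (adjusted p = 0.000677), and both calls were lost without normalization between arrays (adjusted p = 0.162 and 0.19). let-7e, which 3 of 3 MPP arrays but 1 of 3 CMP arrays measured, gave -3.04 ± 0.38 (adjusted p = 9.22e-05), a size that depends on the floor. miR-125a-5p was at least 2.24-fold and miR-99b at least 1.08-fold lower. miR-100 differed by 0.26 ± 0.43 (adjusted p = 0.639). No slide held both populations, so the comparison was between slides. A slide term, estimated through ST-HSC, turned the miR-100 difference to -1.60 ± 0.49 (adjusted p = 0.0409) and moved let-7e to -1.93 ± 0.43 (adjusted p = 0.00893). With this term miR-99a gave -2.04 and miR-125b-5p -1.78, miR-125a-5p and miR-99b passed too, and the share of tested miRs lower was 15.6%.

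Among the HSC subsets, 0 of 6 members passed the test. ST-HSC differed from MPP by -0.91 (let-7e) to -0.20 (miR-100), with adjusted p of 0.237 to 0.795 and 4.64% of the tested miRs called. The 95% interval ran from -0.90 to 0.15 for miR-99a, from -1.12 to 0.07 for miR-125b-5p and from -1.72 to -0.10 for let-7e. let-7e and miR-99b were the 2 members with an unadjusted p under 0.05. On slide 3 alone, with 2 ST-HSC and 3 MPP arrays, miR-99a (-0.43), miR-100 (-0.66) and miR-125b-5p (-0.43) were lower in ST-HSC (adjusted p = 0.0448, 0.0168 and 0.0408 in limma, an alternative chosen after the data were seen). With 1 LT-HSC array, its test takes the spread from the other populations and assumes that LT-HSC varies like them. LT-HSC differed from the mean of ST-HSC and MPP by -1.28 (let-7e) to 0.27 (miR-125b-5p), with 1 member, let-7e, under an unadjusted p of 0.05, where 29.1% of the tested miRs were called. The interval was -0.51 to 1.06 for miR-125b-5p and -1.19 to 0.20 for miR-99a. let-7e missed the threshold at adjusted p = 0.0698, passed it without ST-HSC replicate 1 (difference -1.50, adjusted p = 0.00724) and shrank to -0.12 (adjusted p = 0.857) with slide as a block. miR-100 did the reverse, from -0.38 (adjusted p = 0.62) to -1.54 (adjusted p = 0.0178). The LT-HSC array also read higher for the erythroid miRs, miR-451 by 4.24 and miR-486 by at least 9.08-fold, with both called also under the slide block (adjusted p = 0.0253 and 0.0127). miR-144 gave 3.19 (adjusted p = 0.0159) and 0.82 under the block (adjusted p = 0.219). Their part in the members' values was not tested.

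Whether cluster mates moved together was read from log2 ratios within an array, over arrays where both probes were well above background. The ratio of miR-99a to miR-125b-5p averaged -0.42 ± 0.34 (SD, n = 7) over HSC arrays, beside -0.44 ± 0.28 (SD, n = 8) over myeloid arrays, a difference of 0.02 (exact two-sided permutation test, p = 0.914, adjusted p = 0.914 over the 2 ratios that could be tested). The mean signal of miR-99a was 9.16 in MPP and 3.72 in MEP, and that of miR-125b-5p was 9.54 and 4.55, while their ratio lay between -1.08, in LT-HSC, and 0.06, in ST-HSC replicate 1. The 2 MEP arrays that could be measured had ratios of -0.88 and -0.74, below the 6 CMP and GMP arrays (-0.63 to -0.06), too few for a test. The sign of the difference between sides changed with the processing, from -0.20 with normexp background correction to 0.13 without the LT-HSC array, and was -0.06 without ST-HSC replicate 1.

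The ratio of miR-100 to miR-125b-5p, its mate on chromosome 9, did differ between HSC arrays and the CMP and GMP arrays that could be measured. Its mean was -4.34 ± 0.63 (SD, n = 7) over HSC arrays, beside -2.31 ± 0.30 (SD, n = 5) over CMP and GMP arrays, a difference of -2.03 (exact two-sided permutation test, p = 0.00126, the smallest its 792 splits allow, adjusted p = 0.00253). The 7 HSC ratios (-4.90 to -2.97) lay below the 5 CMP and GMP ratios (-2.63 to -1.88). This full separation holds after quantile normalization only. Without normalization, and with 75th percentile scaling, the difference was -1.28 (adjusted p = 0.0101, same test). In unnormalized units, ST-HSC replicate 1 gave 32.5 for miR-100 and 208 for miR-125b-5p, and CMP replicate 3 gave 13.2 and 90.7. The ratio of ST-HSC replicate 1 then lay above that of CMP replicate 3. GMP replicate 3 and the 3 MEP arrays did not measure miR-100. With miR-100 at the floor, the ratio of MEP replicate 2 is at most -3.38, inside the HSC range, so the separation does not extend to MEP. The sides were also mostly on different slides. On slide 2, LT-HSC had -4.90, ST-HSC replicate 1 had -2.97 and CMP replicate 3 had -2.63, which leaves a difference of -1.31 with no test.

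On chromosome 17, miR-99b and miR-125a-5p kept a ratio of -1.18 to -0.89 over the 6 HSC arrays where both could be measured (mean -1.05 ± 0.10, SD). The ratio of let-7e to miR-125a-5p spread further, from 0.32 in LT-HSC and 0.73 in ST-HSC replicate 1, the slide 2 arrays, to 1.69 to 2.03 on the 5 arrays of slide 3. The ratio of let-7e to miR-99b was likewise 1.74 on slide 2 and 2.73 to 3.13 on slide 3. No myeloid array measured both probes of a chromosome 17 pair, so none of these ratios could be compared between the sides.

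**Figure D3:**
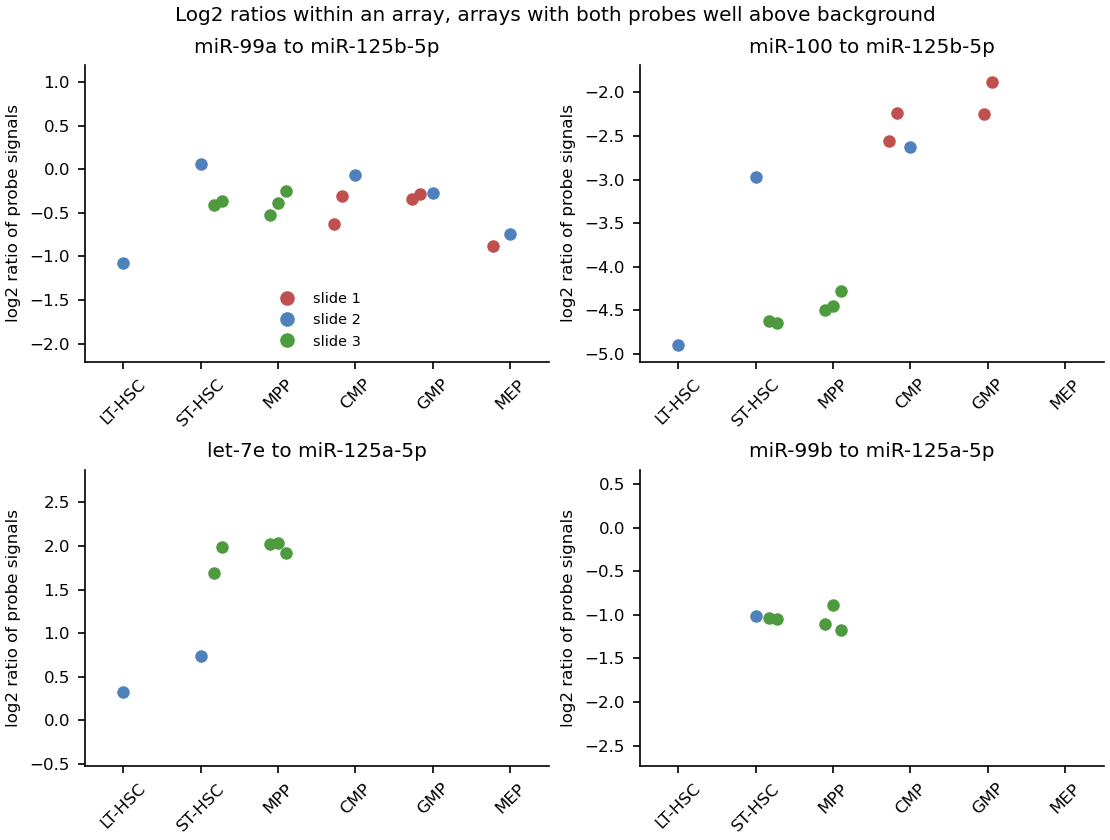
Log2 ratio of 2 members' probe signals within an array (y axis) by population (x axis), each point 1 array coloured by slide, for arrays where both probes were well above background. Each panel spans the same number of log2 units. The miR-99a to miR-125b-5p points lie within -1.08 to 0.06, miR-100 to miR-125b-5p is higher in CMP and GMP than in HSC subsets, with no MEP array measured, and let-7e to miR-125a-5p is lower on slide 2 than on slide 3.

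As a description over the 6 population means, which share arrays and normalization, Pearson's r was 0.986 for miR-99a with miR-125b-5p, 0.983 for miR-99b with miR-125a-5p, 0.944 for let-7e with miR-99b and 0.942 for let-7e with miR-125a-5p. It was 0.844 for miR-100 with miR-125b-5p. Members encoded on different chromosomes also ran together, with 0.958 for miR-99a with let-7e, and the lowest of the 15 pairs was 0.541, miR-99b with miR-100. After the population means were subtracted, the deviations of the 16 arrays had r = 0.817 for miR-99a with miR-125b-5p and r = 0.752 for miR-99b with miR-125a-5p, beside 0.457 for miR-99a with let-7e and 0.02 for miR-99a with miR-99b. These deviations hold the differences between slides.

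The 2 probes of miR-99a, and those of miR-125b-5p, did not keep a fixed ratio between slides. In unnormalized signal, the dimmer miR-99a probe gave 28.9 to 34.2% of the brighter on slide 1. The share was 24.9 to 26.4% on slide 2 but 15.6 to 18.7% on slide 3, with HSC and myeloid arrays alike on slide 2. For miR-125b-5p these shares were 23.4 to 28.2%, 31.5 to 33.4% and 15.5 to 19.9%. For let-7e the shares of slide 2 (57.0 to 61.7%) and slide 3 (50.3 to 58.4%) overlapped, and for the other members no 2 slides could be compared. From MPP to CMP the dimmer miR-99a probe differed by -0.55 (adjusted p = 0.262 in limma) where the brighter gave -1.61, and that of miR-125b-5p by -1.04 where the brighter gave -1.67. Between HSC subsets and myeloid progenitors they gave 1.88 and 2.35.

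The passing miR-100 probe kept a narrow ratio to both miR-99a probes over the 3 arrays of slide 2 that could be measured, and varied more within slides 1 and 3. Its unnormalized signal was 57.2 to 58.6% of the dimmer miR-99a probe on slide 2 (LT-HSC, ST-HSC and CMP). The share was 41.9 to 46.7% on slide 3 and 64.8 to 79.2% on slide 1. Of the brighter miR-99a probe it was 14.2 to 15.4% on slide 2. Slide 3 gave 6.78 to 8.47% and slide 1 gave 21.6 to 27.1%. Whether the miR-100 probe takes up miR-99a, from which miR-100 differs by U16A, was not tested.

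**Figure D4:**
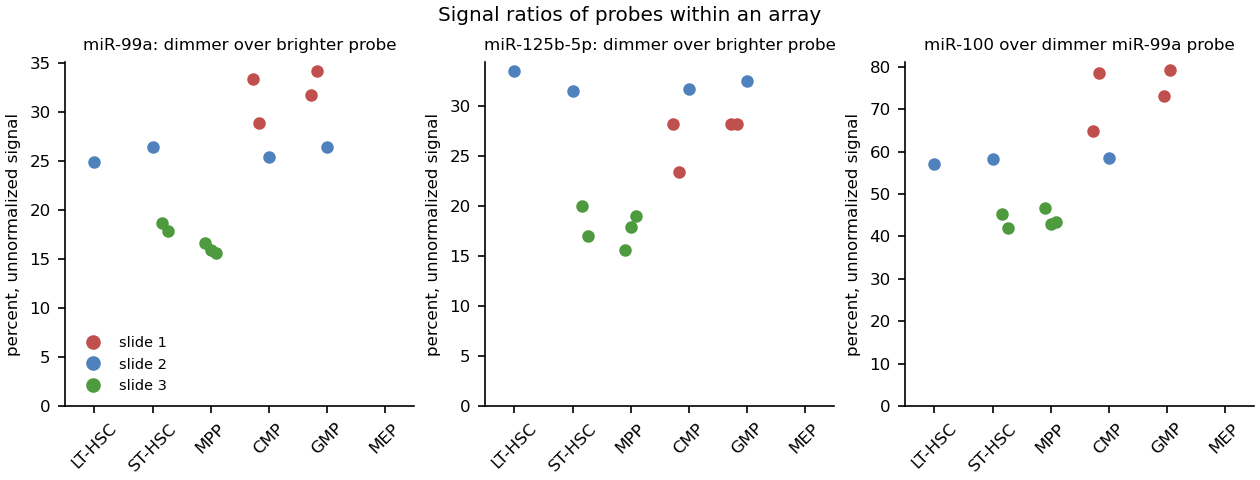
Unnormalized signal of 1 probe as a percentage of another on the same array (y axis) by population (x axis), coloured by slide, for arrays where both were well above background. The shares separate by slide, lowest on slide 3, and populations that share slide 2 have near-equal shares.

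The other products of these clusters and their seed mates were mostly not seen. Of 12 listed names, 8 were on the array and 3 passed the detection filter. let-7c-1*, miR-125b-3p and miR-125b*, the opposite arms, were well above background on 0 arrays, miR-351, which shares the miR-125 seed, on 1 array and miR-99b* on 2. let-7c, encoded between Mir99a and Mir125b-2, was detected on 16 arrays and did not pass the test between HSC subsets and myeloid progenitors (0.84 ± 0.36, adjusted p = 0.0673 in limma) or between MEP and the other myeloid progenitors (-0.33 ± 0.46, adjusted p = 0.524). It also comes from a second gene on chromosome 15. let-7a, with a copy beside Mir100, gave 0.64 ± 0.33 (adjusted p = 0.126) and -0.41 ± 0.43 (adjusted p = 0.403). With slide as a block, let-7c passed in both comparisons (0.61 and -0.33, adjusted p = 0.00921 and 0.018) and let-7a in the second (adjusted p = 0.00634). Both were lower in CMP than in MPP (-1.56 and -1.57, adjusted p = 0.0368 and 0.0271), but not with slide as a block (-0.52 and -0.50, adjusted p = 0.157 and 0.179). miR-125a-3p, cut from the other arm of the miR-125a hairpin, was 1.54 ± 0.45 higher in MEP (adjusted p = 0.00793 in limma). Between MEP and the other myeloid progenitors, the direction of miR-125a-5p was not measured, since its signal met the flag on 0 of 9 arrays. In HSC subsets against myeloid progenitors, miR-125a-3p gave 0.29 ± 0.35 (adjusted p = 0.532). With slide as a block this difference was -0.57 (adjusted p = 0.0958). Over the 3 tested miRs of this list, 0 were called in HSC subsets against myeloid progenitors, with a median of 0.64.

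Of the 10 relatives whose probes could share signal with the members, miR-10a and miR-10b were higher in HSC subsets, by 2.82 ± 0.37 and 1.23 ± 0.46 (adjusted p = 3.56e-05 and 0.0416 in limma). Both were lower in MEP, where miR-10a gave -2.70. Against the detection limit miR-10b was about 1.90-fold lower, not a bound, since 4 of 6 CMP and GMP arrays measured it. miR-98 was lower in HSC subsets (-0.77, adjusted p = 0.0453). The 7 let-7 relatives of let-7e, let-7a, let-7b, let-7c, let-7d, let-7f, let-7g and let-7i, gave 0.06 to 0.84 and were not called. With slide as a block, let-7c (0.61), let-7g (0.35, adjusted p = 0.0454) and let-7i (0.39, adjusted p = 0.0264) were higher in HSC subsets, beside 2.97 for let-7e in that fit. In MEP, let-7i was lower (-0.65, adjusted p = 0.0031) and the other 6 missed the threshold, while with slide as a block all 7 were lower (adjusted p between 3.85e-05 and 0.0212).

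Over the 16 arrays, the 3 miRs outside the set whose profiles were most like those of miR-99a were miR-26a (Pearson's r = 0.972), miR-10a (0.949) and miR-222 (0.940). For miR-125b-5p they were miR-26a (0.968), miR-10a (0.958) and miR-196b (0.926), and for let-7e they were miR-10a (0.944), miR-196b (0.943) and miR-203 (0.923). miR-125a-5p was most like miR-224 (0.899), miR-150 (0.894) and miR-365 (0.874), and miR-99b most like miR-224 (0.957), miR-30c (0.856) and miR-150 (0.846). miR-100 had a set of its own, miR-500 (0.946), miR-450a-5p (0.931) and miR-181c (0.926).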

How the data were processed

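The deposited scanner files hold spot intensity (background-subtracted Cy3 signal) that the authors obtained with Agilent Feature Extraction 9.5.3.1 (slide 1) or 10.2.1.3 (slides 2 and 3), and the deposited value table holds log2 values the authors quantile-normalized with limma. Here 11540 non-control spots were used. Outlier spots were left out, spots were averaged per probe (1712 probes), and signals were quantile-normalized over 16 arrays, floored at 3.07 units (median over arrays of the 0.95 quantile of 672 negative controls) and taken to log2. Well above background was required on at least 3 arrays. Populations were compared with limma 3.58.1 (lmFit and eBayes) in R 4.3.3 over 237 miRs with Benjamini-Hochberg adjustment at 0.05, after tests on simulated data. Ratios used exact permutation tests. The number of arrays limits the precision, and p-values measure the spread between arrays. The labels do not say whether arrays of different populations share a sort or a pool of mice. Members, lists and the rule for named miRs (the 6 members, their cluster mates, opposite arms, seed mates and relatives, and the 3 most correlated miRs of each) were chosen with earlier results of these data known. Alternatives covered normalization, background, floor, filter, probe choice, slide, replicate number and each array left out.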

Additional observations from a re-analysis of the deposited data

How the results depend on the processing

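The 20 member differences that passed the test kept their direction in 543 of 544 alternatives, with a difference of 0 in the other (miR-99b, GMP against CMP, dimmer probe, both populations at the floor), and lost the call in 52 of them. The cause was not tested for any change below. Of 6 members, the number passing was 1 across populations and in each of HSC subsets against myeloid progenitors, MEP against CMP and GMP, GMP against CMP and CMP against MPP when detection on all 16 arrays was required, which leaves miR-125b-5p alone to test. On slide 2 alone it was 0 for HSC subsets against myeloid progenitors and 0 for MEP against CMP and GMP in limma (4 and 2 at an unadjusted p under 0.05). With normexp and with the deposited values it was 3 for MEP against CMP and GMP and 2 for GMP against CMP. Without normalization between arrays it was 0 for GMP against CMP (1 unadjusted, in limma) and 3 for CMP against MPP. With the dimmer probe it was 1 for GMP against CMP and 1 for ST-HSC against MPP, and on slide 3 alone 3 for ST-HSC against MPP, both alternatives chosen after seeing the data. For LT-HSC it was 2 with 75th percentile scaling, 2 without normalization, 2 with normexp and 1 with slide as a block. When 1 array was left out, it ranged from 2 (without CMP replicate 1, CMP replicate 2 or GMP replicate 3) to 5 for GMP against CMP, and from 0 to 1 for LT-HSC (1 without ST-HSC replicate 1 or GMP replicate 3).

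The miR-100 difference between CMP and MPP turned to -0.094 with 75th percentile scaling, -0.026 without normalization and -1.60 with slide as a block. That between ST-HSC and MPP turned to 0.020 with 75th percentile scaling, and ranged from -0.66 to 0.058 when 1 array was left out (0.058 without ST-HSC replicate 2, 0.014 without ST-HSC replicate 3). In LT-HSC against ST-HSC and MPP, 75th percentile scaling turned miR-99b to 0.93 and miR-100 to 0.68. Without normalization miR-125a-5p turned to -1.49 and miR-125b-5p to -2.23, and miR-125a-5p was -0.066 with the mean of probes and -0.27 with the dimmer probe. The side difference in the miR-99a to miR-125b-5p ratio turned to -0.20 with normexp, -0.12 with the mean of probes and -0.11 with the deposited values, and ranged from -0.060 to 0.13 when 1 array was left out. The MEP difference in that ratio was 0.059 with normexp and -0.012 with the deposited values, and the miR-100 to miR-125b-5p difference was -1.31 on slide 2 alone.

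With the replicate number as a block, only arrays with a number in their title were kept. LT-HSC, ST-HSC replicate 1, MPP replicate 1 and replicate 3 of CMP, GMP and MEP were left out, and with them all of slide 2. HSC subsets and myeloid progenitors then shared no slide. On these arrays 6 members passed in each comparison but ST-HSC against MPP, with 1. In CMP against MPP, miR-100 passed as higher in CMP (0.61, adjusted p = 0.0373 in limma), while the other members were lower. The calls over all miRs in GMP against CMP rose from 18 to 70, with both the block and the set of arrays changed. The deviations of same-numbered arrays had correlations of 0.10 (CMP and GMP), 0.11 (CMP and MEP) and -0.11 (GMP and MEP), so the numbers do not establish pairing. Signal over background limits miR-99b, miR-125a-5p and let-7e in myeloid progenitors, where most values lie near the floor.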
